A study of Mus musculus with 2 samples.

Results

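Tumor-infiltrating monocytes are described here from 2 droplet libraries of immune cells sorted out of B16Ova tumors, a mouse melanoma line that carries ovalbumin. The cells were chosen by their transcripts. Barcodes with fewer than 500 unique molecular identifiers (UMIs, 1 per captured transcript), fewer than 300 genes or more than 10% of UMIs from mitochondrial genes were left out. A barcode was taken as a monocyte with at least 3 UMIs of Vcan, F13a1 and Chil3 together, at most 4 of the C1q genes C1qa, C1qb and C1qc, at most 2 of Cd209a, Clec10a and Mgl2, at most 1 of Xcr1 and Clec9a, and at most 1 of the CD3 genes Cd3d, Cd3e and Cd3g. The rule gave 94 monocytes of 2074 cells kept, 73 of 1086 in the KO library and 21 of 988 in the WT library. Because the rule uses measured transcripts, the levels of its own genes are not results, and every value below describes cells chosen in this way.

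The KO animals were Tcf7 cKO mice (E8i-cre+, Tcf7 FL/FL), and the WT animals lacked the transgene (E8i-cre-, Tcf7 FL/FL), so both groups carried floxed Tcf7, the gene of the T cell transcription factor TCF1. E8i-cre drives Cre in the mature CD8 lineage, so monocytes are not the cells it targets, and Tcf7 had 1 UMI in KO monocytes and 0 in WT monocytes. All mice were female, received B16Ova cells under the skin of the flank, and gave tumors on day 13, of which 3 per group were pooled in 1 library. From each tumor 2000 cells were sorted in each of 4 categories and mixed in equal parts, and 7000 cells were loaded per channel. These were 2 T cell gates (CD8+ and CD4+), a dendritic gate of CD64-, CD11c+, MHCII+ cells, and a last gate of CD11c-, MHCII- cells that were either CD64+, B220+, Ly6G+, NK1.1+ and CD24- or negative for those 4 markers and CD24+. CD64, MHCII, CD11c and Ly6G were thus part of the gates, and the equal mixing of categories can set the share of any class. With 1 library a group and no label that ties a barcode to a tumor, no test of KO against WT exists. Intervals are exact 95% intervals that cover counting error only, and a difference between KO and WT cannot be told apart from a difference between these 2 libraries. The range given for a difference of 2 shares joins opposite ends of their intervals and is not itself a 95% interval.

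Monocytes leave the bone marrow through the receptor CCR2 and enter inflamed tissue and tumors, where they can become macrophages or cells that present antigen. In mice the classical type carries high Ly6C and a patrolling type carries low Ly6C with high Cx3cr1 and Nr4a1. Interferon gamma, released by T cells and NK cells, is known to induce chemokines, guanylate-binding proteins and MHC class II in monocytes, and type I interferon induces a partly shared antiviral programme.

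The label was checked on genes the rule did not use. Ly6c2, which encodes the classical monocyte antigen Ly6C2, was detected in 66 of 73 KO monocytes and 14 of 21 WT monocytes. Ccr2 was detected in 70 KO and 16 WT monocytes, Csf1r, the receptor for the growth factor of this lineage, in 68 and 17, and Fcgr1, which encodes CD64, in 66 and 16. Lyz2, the lysozyme of myeloid cells, was detected in every monocyte of both libraries. After each cell was thinned to 2000 UMIs, T cells held a Lyz2 UMI in 1.25% of KO cells and 1.57% of WT cells, against 98.6% of KO monocytes and 94.7% of WT monocytes. Ly6c2 is not such a separate marker, since 32.6% of thinned KO T cells and 28.9% of thinned WT T cells held a UMI of it, against 80.8% of KO and 57.9% of WT monocytes. Ly6g of neutrophils and Zbtb46 of dendritic cells had no UMI in monocytes of either library, but other genes of their lists were detected. Of 14 neutrophil genes 10 had no UMI in KO and 12 in WT monocytes. The whole list was absent from 23 of 73 KO and 18 of 21 WT monocytes. Of 24 dendritic cell genes 4 had no UMI in KO and 8 in WT monocytes. That list took a median of 0.119% of a KO monocyte's UMIs and 0.0867% of a WT monocyte's. In type 2 dendritic cells the medians were 0.519% in KO and 0.529% in WT.

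The WT class rests on fewer cells and fewer UMIs. The median depth was 9267 UMIs in KO monocytes (3000 to 16659) and 7204 in WT monocytes (612 to 10949), and the summed depth was 696343 UMIs in KO against 144294 in WT. At the lower margin of the rule, 4 KO monocytes and 7 WT monocytes had a gate sum of exactly 3, and 4 and 2 of these held Ly6c2. Just outside it, 2 KO cells and 1 WT cell had a sum of 2. Ptprc, which encodes CD45, was detected in 69 of 73 KO and 14 of 21 WT monocytes. A count of 3, used below as the floor for a gene with no UMI, equals 4.31 CPM (UMIs of a gene scaled to a common class total) in KO monocytes and 20.8 CPM in WT monocytes, so a low gene was less visible in WT. The libraries shared 1 barcode, which was not a monocyte.

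Monocytes made up 6.72% of the cells kept in the KO library (5.31 to 8.38%) and 2.13% in the WT library (1.32 to 3.23%). The difference was 4.60 percentage points (2.07 to 7.06 from opposite ends of the 2 intervals). Of cells outside the T cell class, monocytes were 12.5% of 585 in KO and 4.08% of 515 in WT. That class asks for at least 3 CD3 UMIs and at most 1 UMI of each other gate sum, so some cells outside it held CD3 UMIs. Among monocytes, macrophages and type 2 conventional dendritic cells (cDC2s) together, they were 44.2% of 165 cells in KO (36.5 to 52.2%) and 23.1% of 91 cells in WT (14.9 to 33.1%). The other classes, chosen by rules of the same form, held 28 KO and 26 WT macrophages and 64 KO and 44 WT cDC2s. The intervals count cells of 1 library each, and the sort and the mixing of categories can set these shares.

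**Figure D1:**
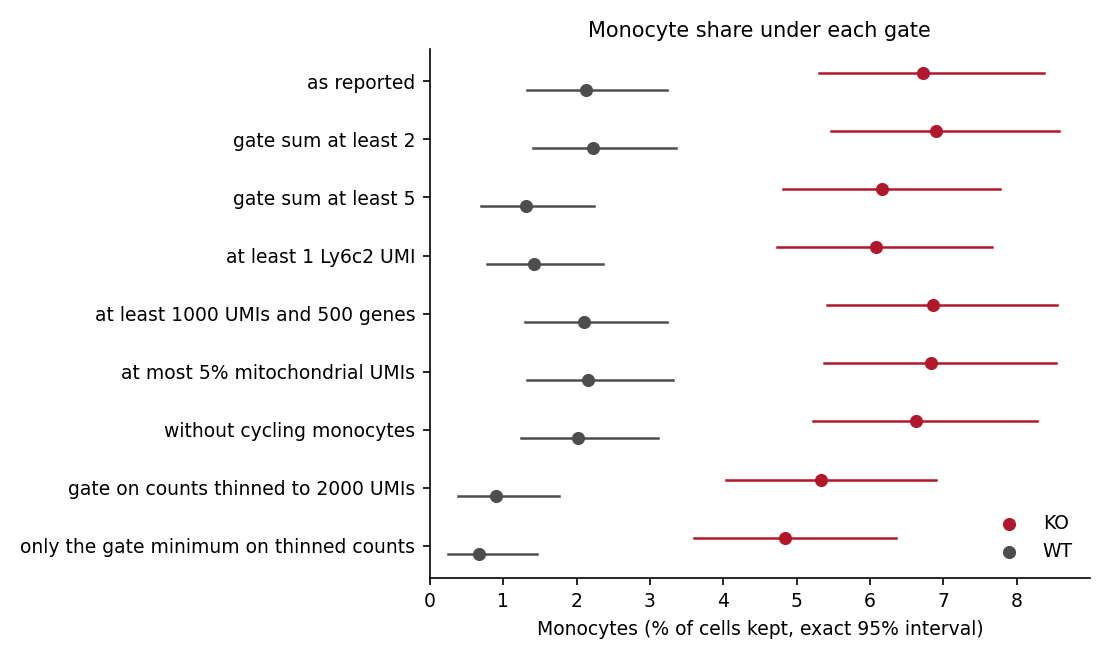
Monocytes as a percentage of all cells kept, for the rule as reported and for 8 other settings (rows); points are shares, lines are exact 95% intervals, red KO above grey WT. The KO share is 6.72% and the WT share 2.13% as reported, and the KO share is above the WT share in every setting plotted, down to 4.84% against 0.673% where the gate minimum was applied to thinned counts.

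Within each library, monocytes were set against macrophages chosen by at least 10 C1q UMIs. A gene was measured at 50 CPM in either class and called higher or lower at a ratio of at least 2 with an interval that excludes 1, in both libraries. Of 2687 genes measured in both, 163 (6.07%) were higher and 96 (3.57%) lower in monocytes. Within 1 library, 12.3% of genes were higher and 11.1% lower in KO, and 11.1% and 8.07% in WT. Of 26 measured genes of a classical monocyte list, 18 were higher and 0 lower, with a median log2 ratio of 1.91 in KO and 2.03 in WT, beside 0.04 and 0.03 over all genes measured. The list and the gate describe the same cell type, so this checks the label more than it adds to it. Of 22 macrophage genes 0 were higher and 10 lower, with medians of -1.29 in KO and -1.62 in WT.

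The genes highest against macrophages included several secreted proteins. Hp, which encodes haptoglobin, stood at 682 CPM in KO monocytes against 5.41 CPM in KO macrophages, and at 547 CPM in WT monocytes against 14.1 CPM in WT macrophages. Plac8 had 3429 CPM in KO monocytes against 536 CPM in KO macrophages, and 2432 CPM in WT monocytes against 431 CPM in WT macrophages. In neither did the direction depend on the library. Fn1 (fibronectin), Thbs1 (thrombospondin 1), Slpi (a secreted inhibitor of neutrophil elastase), Gsr (glutathione reductase), Ifitm6, Mgst1 and Lyz2 were also among the 10 highest. Ccr2 itself stood at 709 CPM in KO monocytes against 189 CPM in KO macrophages, and at 707 CPM in WT monocytes against 191 CPM in WT macrophages.

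Most macrophage genes were detected in monocytes, but 1 of 27 listed had no UMI in KO monocytes (Gas6) and 6 had none in WT monocytes, Cd72 among them. Ccl12, a ligand of CCR2, had 707 CPM in KO monocytes against 4994 CPM in KO macrophages, and 111 CPM in WT monocytes against 969 CPM in WT macrophages. Ms4a7 had 136 CPM in KO monocytes against 644 CPM in KO macrophages, and 83.2 CPM in WT monocytes against 976 CPM in WT macrophages. Lgmn, which encodes the lysosomal protease legumain, was lower too, with 514 CPM in KO monocytes against 1823 CPM in KO macrophages and 561 CPM in WT monocytes against 2355 CPM in WT macrophages. Nr1h3, the sterol-sensing receptor LXR alpha, Cd81, Cd72, Tmem86a, Cd300lh, Ccl8 and Stmn1, a gene of dividing cells, completed the 10 lowest. Of lysosomal genes 0 of 22 were higher and 4 lower (Ctsb, Lgmn, Cd63 and Lipa), and of 14 adhesion genes 6 were higher, among them Itgal, Itga4, Itgb7, Cd44 and Adgre5, and 1 lower (Adgre1, the F4/80 antigen). Of 16 early response genes that tissue dissociation is also known to induce, 6 were higher and 0 lower, and Dusp1, a phosphatase, had 1133 CPM in KO monocytes against 368 CPM in KO macrophages and 2065 CPM in WT monocytes against 417 CPM in WT macrophages. Whether dissociation had a part in this was not tested.

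Of 14 chemokine ligand genes measured against macrophages, 1 was higher and 4 were lower in monocytes. The higher gene was Cxcl10, a ligand of CXCR3 on T cells, with 1993 CPM in KO monocytes against 736 CPM in KO macrophages and 624 CPM in WT monocytes against 191 CPM in WT macrophages. It had no UMI in 35 of 73 KO and 17 of 21 WT monocytes, so the WT level came from few cells. The lower genes were Ccl7, Ccl8, Ccl12 and Cxcl16, the membrane-bound ligand of CXCR6. Cxcl16 had 79.0 CPM in KO monocytes against 352 CPM in KO macrophages and 90.1 CPM in WT monocytes against 325 CPM in WT macrophages. Il1b, which encodes interleukin 1 beta, was higher in monocytes in both libraries, at 326 CPM in KO monocytes against 70.3 CPM in KO macrophages and 728 CPM in WT monocytes against 283 CPM in WT macrophages. Clec4e, a sensor of fungal and mycobacterial lipids, was higher as well, at 254 CPM in KO monocytes against 16.2 CPM in KO macrophages and 326 CPM in WT monocytes against 49.5 CPM in WT macrophages.

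Against cDC2s, 268 of 2725 genes (9.83%) were higher in monocytes in both libraries and 117 (4.29%) were lower. Within 1 library, 14.4% of genes were higher and 7.93% lower in KO, and 15.2% and 7.47% in WT. All 10 measured MHC class II genes were lower, with a median log2 ratio of -3.24 in KO and -3.94 in WT. H2-Aa had 1198 CPM in KO monocytes against 11375 CPM in KO cDC2s, and 215 CPM in WT monocytes against 12493 CPM in WT cDC2s. Of 17 dendritic cell genes 0 were higher and 15 lower. Il1r2, the interleukin 1 decoy receptor and 1 of the 10 lowest genes, had 7.18 CPM in KO monocytes against 297 CPM in KO cDC2s and no UMI in WT monocytes against 540 CPM in WT cDC2s. MHCII and CD11c were part of the dendritic sort gate, and MHCII- was part of the last gate, so the sort can set the MHC class II difference between these classes.

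In the other direction, 17 of 26 classical monocyte genes, 7 of 7 patrolling monocyte genes, 12 of 16 macrophage genes, 11 of 12 coagulation and matrix genes and 10 of 15 chemokine ligand genes were higher in monocytes than in cDC2s in both libraries. Ccl2, the ligand of CCR2, had 1830 CPM in KO monocytes against 1.13 CPM in KO cDC2s, and 1109 CPM in WT monocytes against 45.3 CPM in WT cDC2s. C5ar1, the complement C5a receptor, Msr1, a scavenger receptor, and Maf, a transcription factor, had no UMI in cDC2s of either library. With cDC2s at the floor they were 56.1-fold, 49.7-fold and 42.9-fold higher in KO monocytes, and 52.8-fold, 42.8-fold and 31.4-fold higher in WT monocytes. Apoe, an apolipoprotein gene of macrophages, had 877 CPM in KO monocytes against 2.25 CPM in KO cDC2s and 915 CPM in WT monocytes against 12.9 CPM in WT cDC2s.

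**Figure D2:**
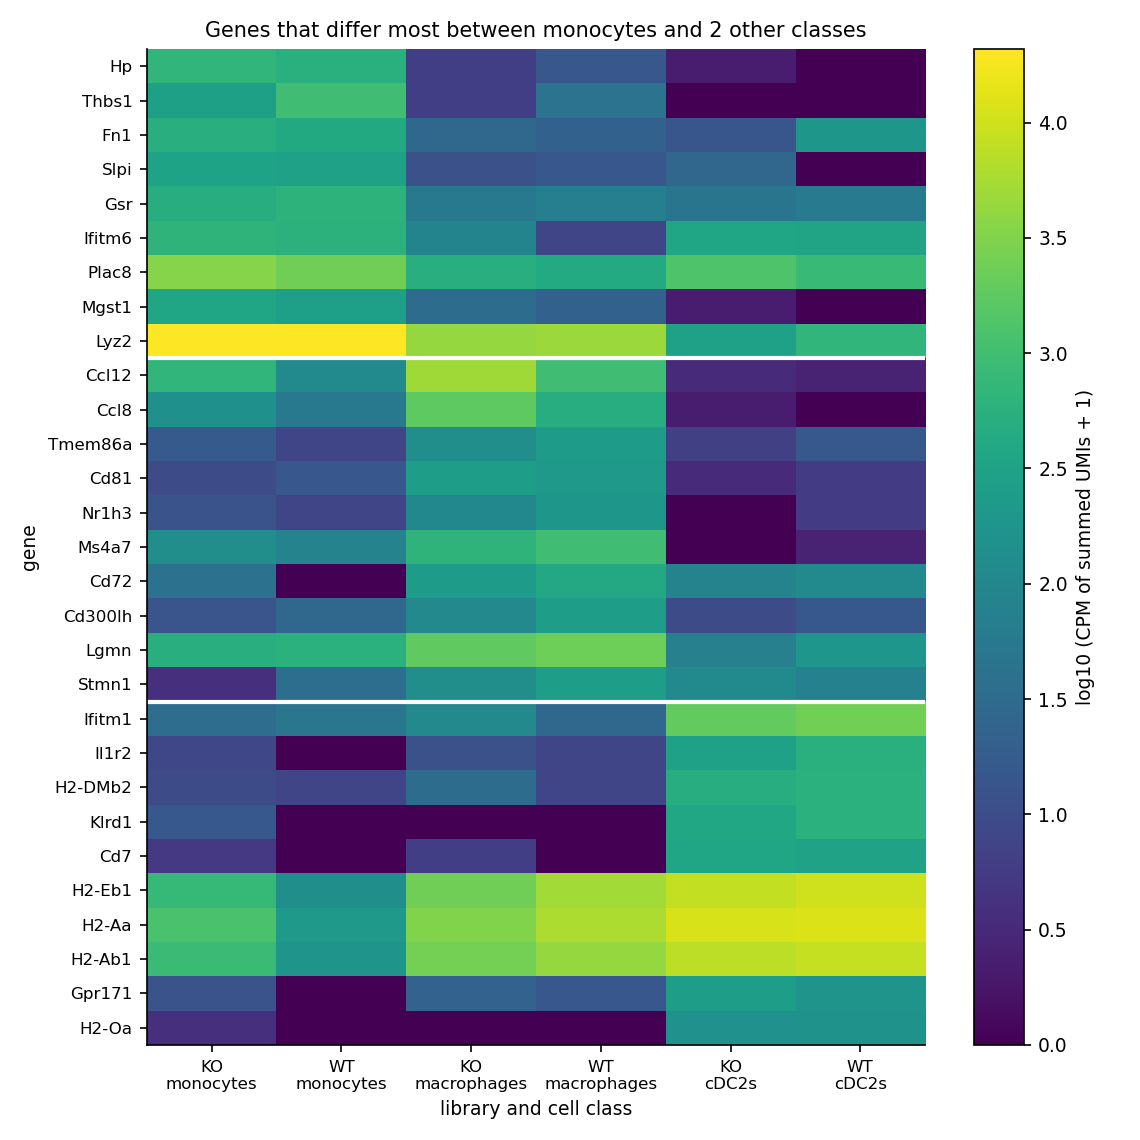
Heat map of log10(CPM + 1) of summed UMIs in monocytes, macrophages and cDC2s, KO left of WT in each pair; rows are 9 of the 10 genes highest in monocytes against macrophages (top), the 10 lowest against macrophages (middle) and the 10 lowest against cDC2s (bottom), divided by white lines. The top block is bright in both monocyte columns (Lyz2 at 20797 CPM in KO and 20230 CPM in WT), and in the bottom block H2-Aa, H2-Ab1 and H2-Eb1 are brighter in KO than in WT monocytes and brightest in cDC2s.

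KO monocytes were then set against WT monocytes. Of 3005 genes measured, 118 (3.93%) were higher and 133 (4.43%) were lower in KO monocytes, and the median log2 ratio was -0.02. Of genes that interferon gamma induces, 14 of 21 measured members were higher and 0 lower, with a median of 1.37. Of MHC class II genes 4 of 6 were higher and 0 lower, with a median of 2.29. Chemokine ligands had 8 of 15 higher and 1 lower, with a median of 1.14 that turned to -1.10 where the whole gate was applied to counts thinned to 2000 UMIs a cell, and type I interferon genes had 7 of 24 higher and 0 lower, with a median of 0.64. Cxcl9 and Cxcl10 belong both to the interferon gamma list and to the chemokine list. A gene that reached the 50 CPM limit only in KO could be called higher but not lower, and the reverse holds for WT. Among the interferon gamma genes, Cxcl9, Gbp5 and Socs1 passed in this way, so their place among the higher genes is partly set by the limit. The same holds for KO against WT in the other classes. Genes of monocyte identity did not stand out, with 1 of 27 classical monocyte genes higher (Gpr141) and 1 lower (Thbs1), and a median of 0.09.

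Of the genes of monocyte identity named here, Lyz2, Ccr2 and Csf1r had like levels in both libraries, while Ly6c2 was higher in KO by less than the 2-fold asked for. Lyz2 had 20797 CPM in KO monocytes and 20230 CPM in WT monocytes, a ratio of 1.03 (0.988 to 1.07). Cell by cell, Lyz2 ran over 145 to 47338 CPM in KO monocytes with a median of 20068, and over 139 to 46009 CPM in WT monocytes with a median of 19641. Ccr2 had 709 CPM in KO and 707 CPM in WT, a log2 ratio of 0.01. Csf1r had 470 CPM in KO and 416 CPM in WT, and S100a6, a calcium-binding protein gene, had 3801 CPM in KO and 3881 CPM in WT. Ly6c2 had 2045 CPM in KO and 1448 CPM in WT, a ratio of 1.41 (1.22 to 1.64), and its median over cells was 1513 CPM in KO monocytes (0 to 8413) and 317 CPM in WT monocytes (0 to 8403), with 7 cells of each library at 0. Nr4a1, the transcription factor of the patrolling type, had 148 CPM in KO and 146 CPM in WT, and of 10 patrolling genes 1 was higher (Pglyrp1) and 2 were lower in KO (Gngt2 and Cx3cr1). All 3 changed sign with the whole gate on thinned counts (log2 ratios of -0.36, 0.30 and 2.31), and Cx3cr1 also with the minimum alone (1.45).

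Among the interferon gamma genes, Cxcl9, a ligand of CXCR3, ranked first by its interval. It had 353 CPM in KO monocytes (310 to 400) and 20.8 CPM in WT monocytes (4.29 to 60.8), a log2 ratio of 4.09. It was detected in 19 of 73 KO monocytes and in 2 of 21 WT monocytes, and 1 KO cell gave 100 of its 246 UMIs. Cxcl10 had 1993 CPM in KO and 624 CPM in WT, a log2 ratio of 1.68, in 38 KO and 4 WT cells. Ly6a, which encodes the interferon-induced antigen Sca-1, had 768 CPM in KO and 111 CPM in WT in 34 and 4 cells. AW112010, an interferon-induced transcript, had 379 CPM in KO and 27.7 CPM in WT, in 29 and 3 cells. Ly6a and AW112010 lost their call where the whole gate was applied to thinned counts. The guanylate-binding proteins act against intracellular microbes. Gbp2 had 602 CPM in KO and 194 CPM in WT, and Gbp5 had 94.8 CPM in KO and no UMI in WT, 4.56-fold higher with WT at the floor. Socs1, a feedback inhibitor of the interferon receptors, had 224 CPM in KO and 41.6 CPM in WT.

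Other parts of the same response were close to the 2-fold line or under it. Irf1 had 254 CPM in KO and 208 CPM in WT (ratio 1.22, 0.827 to 1.87), and Psmb8, an immunoproteasome subunit, had 921 CPM in KO and 707 CPM in WT (log2 ratio 0.38). Irf1 was chosen after its values were seen. Among type I interferon genes, Ifit1, which binds foreign RNA, had 609 CPM in KO and 118 CPM in WT, a log2 ratio of 2.37, and was detected in 45 of 73 KO monocytes and 6 of 21 WT monocytes. Ifit3 had 735 CPM in KO and 187 CPM in WT, and Rsad2, which encodes viperin, had 860 CPM in KO and 367 CPM in WT. Isg15, a ubiquitin-like modifier, had 2691 CPM in KO and 1358 CPM in WT, a ratio of 1.98 (1.71 to 2.31), just under the threshold. Over single cells the 2 interferon lists were correlated, with a Spearman coefficient of 0.71 over 73 KO monocytes and 0.72 over 19 WT monocytes after thinning, values that share the same cells and libraries.

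The NK cell marker list summed to 368 CPM in KO monocytes, with 0 to 0.616% of a cell's UMIs, and to 20.8 CPM in WT monocytes, with 0 to 0.0183%. In KO 1 of its 12 genes had no UMI (Klra7), and in WT 11 of 12. Of its UMIs in KO, 99 were of Gzma, which encodes a granzyme, in 3 cells. Of 73 KO monocytes 50 had none of its genes, as had 19 of 21 WT monocytes. The part of such cells in the interferon result was not tested.

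MHC class II genes, which present peptides to CD4 T cells, differed in a minority of cells. H2-Aa had 1198 CPM in KO monocytes and 215 CPM in WT monocytes, a log2 ratio of 2.48, and was detected in 24 of 73 KO cells and 3 of 21 WT cells. H2-Ab1 had 890 CPM in KO and 173 CPM in WT, H2-Eb1 had 765 CPM in KO and 139 CPM in WT, and Cd74, the invariant chain, had 6291 CPM in KO and 1351 CPM in WT. All 4 were called higher. H2-DMa and H2-DMb1, which load the peptide, had log2 ratios of 0.61 and 0.83 and were not called. The list made up a median of 0.0915% of a KO monocyte's UMIs (0 to 8.38%) and 0.0744% of a WT monocyte's (0 to 1.81%), so the typical cell was alike and the sums differed. At least 3 H2-Aa UMIs were found in 20 KO monocytes and 2 WT monocytes.

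The MHC class II result rests on few WT cells and on the upper limits of the rule. MHCII was also part of the sort gates, so the mixing of categories can set how many monocytes with MHC class II each library holds. The part of the sort in the KO and WT difference was not tested. In WT 1 cell gave 26 of the 31 H2-Aa UMIs and 1 gave 19 of the 20 of H2-Eb1, and without the top cell of each library the log2 ratios were 4.83 and 6.45. Almost no WT count was left for H2-Eb1 there, so the size of its ratio is not settled. Where all limits of the rule were applied to counts thinned to 2000 UMIs, 54 KO and 8 WT cells remained and the list's median turned to -1.45, with H2-Aa at -2.29 and Cd74 at -1.30. Of the 12 highest genes 11 had a value in that setting. Among these 4 kept their call, 5 changed sign and 2 lost their call (AW112010 and Ly6a). Of those 8 WT cells 2 were not monocytes by the rule on full counts, since both exceeded its CD3 limit and 1 its cDC1 limit, and they held 95.1% of the WT MHC class II UMIs. With the minimum alone on thinned counts and the upper limits on full counts, a setting chosen after seeing this, 49 KO and 6 WT monocytes remained and all 11 of the 12 highest genes with a value kept their call. In the shares of thinned cells, H2-Aa was found in 26.0% of KO monocytes and 10.5% of WT monocytes, a difference of 15.5 points (-16.7 to 36.3), while 3.76% of KO and 4.48% of WT T cells held a UMI of it. That share difference was not detectable at this number of WT cells.

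KO monocytes with at least 3 H2-Aa UMIs differed from the other KO monocytes in more than MHC class II. Lyz2 took a median of 1.497% of the UMIs of these 20 cells and 2.51% of those of the other 53. Their median depth was 10021 UMIs against 9125. Cxcl9 with at least 3 UMIs was found in 11 KO monocytes and no WT monocyte, and 6 of the 11 also had at least 3 of H2-Aa. In the same KO cells the interferon gamma list took a median of 1.18%, against 0.468% in the 62 others, although Cxcl9 itself is a member of that list. The cDC1 marker list summed to 481 CPM in KO monocytes (0 to 0.235% of a cell) and 319 CPM in WT monocytes (0 to 0.348%), the mature dendritic list to 273 CPM (0 to 0.488%) and 118 CPM (0 to 0.0505%), and the B cell list to 5.74 CPM (0 to 0.0151%) and 0. Ccr7, Ccl22 and Ccl17 of mature dendritic cells had no UMI in monocytes of either library.

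**Figure D3:**
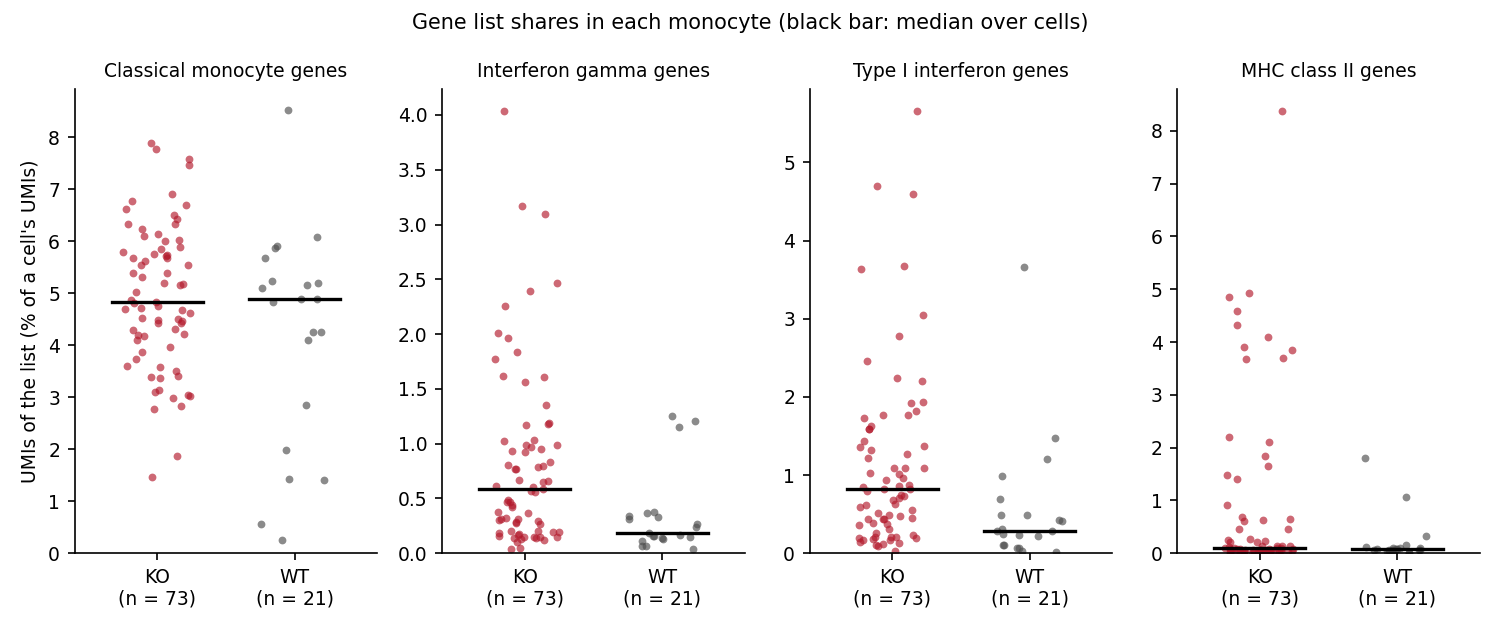
Share of each monocyte's UMIs (percent, vertical) that belongs to 4 gene lists, KO left (73 cells, red) and WT right (21 cells, grey) in each panel, with horizontal jitter and a black bar at the median. The classical monocyte medians are 4.84% and 4.89%, the interferon gamma medians 0.590% in KO and 0.185% in WT and the type I interferon medians 0.815% in KO and 0.283% in WT, and the MHC class II medians are alike with a tail of KO cells up to 8.38%.

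Promoters are shown for 7 genes called higher in KO monocytes, because interferon and MHC class II lists held many of the genes called higher. Sequences are from RefSeq on GRCm38.p6, the 200 bases before the annotated start, 5′ to 3′ on the gene's strand, and the 7 shown were picked after the values were seen. Capitals mark matches on either strand to an interferon-stimulated response element (ISRE, the letters GAAA, 2 bases of any kind, GAAA) or an interferon gamma activated site (GAS, TTCNNNGAA), where N is any base.
Cxcl9, chr5:92328080-92328279, - strand: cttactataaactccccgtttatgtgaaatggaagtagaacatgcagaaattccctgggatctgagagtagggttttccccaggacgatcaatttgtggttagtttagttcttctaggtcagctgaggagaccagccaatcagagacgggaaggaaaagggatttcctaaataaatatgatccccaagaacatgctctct
Gbp2, chr3:142620463-142620662, + strand: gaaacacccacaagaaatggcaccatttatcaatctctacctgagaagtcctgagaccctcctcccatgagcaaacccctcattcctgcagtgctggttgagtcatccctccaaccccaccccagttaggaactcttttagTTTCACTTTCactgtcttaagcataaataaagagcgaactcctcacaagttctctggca
Socs1, chr16:10785537-10785736, - strand: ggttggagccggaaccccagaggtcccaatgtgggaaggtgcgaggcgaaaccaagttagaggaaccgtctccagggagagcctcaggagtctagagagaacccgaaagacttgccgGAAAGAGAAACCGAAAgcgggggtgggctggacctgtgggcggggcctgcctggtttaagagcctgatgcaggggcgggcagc
Igtp, chr11:58199356-58199555, + strand: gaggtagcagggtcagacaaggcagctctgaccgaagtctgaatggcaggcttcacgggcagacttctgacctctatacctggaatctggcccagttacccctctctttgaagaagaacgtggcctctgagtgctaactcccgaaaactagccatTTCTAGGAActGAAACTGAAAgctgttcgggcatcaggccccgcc
Irgm2, chr11:58214777-58214976, + strand: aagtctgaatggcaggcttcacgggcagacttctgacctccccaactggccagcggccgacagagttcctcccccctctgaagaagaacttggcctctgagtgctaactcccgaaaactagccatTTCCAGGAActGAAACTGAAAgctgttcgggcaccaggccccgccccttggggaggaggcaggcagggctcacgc
Ifit1, chr19:34640689-34640888, + strand: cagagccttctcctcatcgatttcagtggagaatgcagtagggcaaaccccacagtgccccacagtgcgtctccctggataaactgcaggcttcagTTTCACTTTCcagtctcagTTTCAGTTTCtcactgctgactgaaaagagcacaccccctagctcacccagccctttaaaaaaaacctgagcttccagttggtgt
H2-Aa, chr17:34287824-34288023, - strand: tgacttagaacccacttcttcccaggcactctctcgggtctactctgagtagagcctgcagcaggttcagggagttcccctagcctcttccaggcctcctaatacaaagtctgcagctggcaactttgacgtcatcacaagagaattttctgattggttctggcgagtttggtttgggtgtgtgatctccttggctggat
Socs1 and Ifit1 held 2 ISRE matches each, which overlap in Socs1, and Irgm2 and Igtp held 1 GAS and 1 ISRE match that lie side by side without overlap. Cxcl9 and H2-Aa held neither in these 200 bases.

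Over the 250 bases before the start, the ISRE letters were found in 9 of the 11 matched promoters of interferon gamma genes higher in KO and in 10 of the 18 matched promoters of all measured interferon gamma genes, against 3.04% of 27025 promoters. The GAS letters were found in 4 of 11 and 8 of 18, against 7.18% of all. Of the 6 matched type I interferon genes higher in KO, 4 held the ISRE and 0 the GAS letters, and of all 21 measured and matched, 11 and 4. CCAAT was searched as well and was found in 4 of the 11 and 2 of the 6, against 34.5% of all promoters. Neither of the 2 matched MHC class II promoters held ISRE or GAS letters, and both held CCAAT. A match is a description of letters and not a bound site, and no match says only that these letters are not in this window.

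Irgm2 and Igtp encode immunity-related GTPases that act on vacuoles of intracellular microbes. Irgm2 had 56.0 CPM in KO monocytes and 13.9 CPM in WT monocytes, in 29 of 73 and 2 of 21 cells, and Igtp had 231 CPM in KO and 90.1 CPM in WT, in 46 and 5 cells. Both were called higher and both were chosen after their values were seen. The WT value of Irgm2 is under the floor of 20.8 CPM.

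Chemokine ligands outside the interferon genes did not all stand on the same side. Of the ligands of monocyte and T cell receptors named here, Ccl12, Ccl7 and Ccl5 were called higher in KO monocytes. Ccl12 had 707 CPM in KO and 111 CPM in WT (16 and 4 cells), and Ccl7, another CCR2 ligand, had 997 CPM in KO and 319 CPM in WT (19 and 3 cells). Ccl2 had 1830 CPM in KO and 1109 CPM in WT, a ratio of 1.65 (1.40 to 1.96), and was not called. Ccl5, a T cell attractant, had 175 CPM in KO (145 to 209) and no UMI in WT (0 to 25.6), 8.43-fold higher with WT at the floor. It came from 5 KO cells, with 55 of 122 UMIs in 1 of them. Without that cell its log2 ratio at the floor was 2.17. Pf4, a platelet factor that macrophages also make, had 180 CPM in KO and 13.9 CPM in WT, and without the top cells its log2 ratio was 1.57 in place of 3.70. Its WT value is under the floor of 20.8 CPM.

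Cxcl2, a neutrophil attractant, stood on the lower side, with 234 CPM in KO monocytes (200 to 273) and 1358 CPM in WT monocytes, a log2 ratio of -2.54. It was detected in 9 of 73 KO and 9 of 21 WT monocytes, and at least 3 UMIs were found in 6 and 8. After thinning, 6.85% of KO monocytes and 42.1% of WT monocytes held a UMI, a difference of -35.3 points (-64.2 to -4.99), while T cells held one in 0.209% of KO and 0.448% of WT cells. Of 249 genes compared in this way, 2 had a range of opposite interval ends that excludes 0, Cxcl2 and S100a11. For S100a11 the difference was 37.6 points in this thinning and 18.6 points averaged over all thinnings. Cxcl16 had 79.0 CPM in KO and 90.1 CPM in WT, a ratio of 0.877 (0.473 to 1.75).

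Inflammatory and suppressive genes did not share a direction. Il1b had 326 CPM in KO and 728 CPM in WT monocytes, a log2 ratio of -1.16, and was the 1 called gene of 8 measured inflammatory cytokine genes, in 33 KO and 13 WT cells. Il1rn, which blocks the interleukin 1 receptor, had 385 CPM in KO and 222 CPM in WT, a log2 ratio of 0.80, and was not called. Arg1, the arginase of suppressive myeloid cells, had 339 CPM in KO and 41.6 CPM in WT, a log2 ratio of 3.03, yet it was detected in 5 KO cells and 1 WT cell. All 4 KO cells with at least 3 Arg1 UMIs also had at least 3 of Pf4, their median Lyz2 share was 0.253%, against 2.07% in the 69 others, and their glycolysis list took 3.94% against 0.606%. Spp1, which encodes osteopontin, had 241 CPM in KO and 929 CPM in WT in 7 cells each. Its log2 ratio was -1.94, and -4.01 without the top cells, since 1 KO cell gave 147 of 168 UMIs. Nos2, the nitric oxide synthase of activated macrophages, had 8.62 CPM in KO and no UMI in WT, near or under the floor in both.

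Of 23 lysosomal genes 1 was higher (Ctsc) and 4 were lower, and of 10 lipid and scavenger genes 0 were higher and 3 lower, with medians of -0.14 and -0.45. Ctsk, a collagen-degrading cathepsin, had no UMI in KO monocytes (0 to 5.30 CPM) and 111 CPM in WT monocytes, from 16 UMIs in 2 WT cells. With KO at the floor it was 25.7-fold lower. Ctsl had 289 CPM in KO and 728 CPM in WT, and Ctsd had 293 CPM in KO and 686 CPM in WT. Fabp5, which carries fatty acids, had 625 CPM in KO and 1511 CPM in WT, and Trem2, a lipid receptor, had 51.7 CPM in KO and 118 CPM in WT. With the gate minimum on thinned counts, Ctsl and Trem2 turned to log2 ratios of 0.02 and 0.05. Gpnmb had 24.4 CPM in KO and 326 CPM in WT, a log2 ratio of -3.74 in 10 and 6 cells. It is a gene of macrophages and of melanoma cells, and the melanoma marker list, which holds it, summed to 112 CPM in KO (0 to 0.101% of a cell) and 395 CPM in WT monocytes (0 to 0.353%), with Tyr and Sox10 at 0 in KO and Ptgds at 0 in WT. The part of tumor RNA in this was not tested.

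Further genes called lower in KO monocytes came from the ranking and from several lists. Gdf15, a stress-induced cytokine, had no UMI in KO and 104 CPM in WT, from 15 UMIs in 3 WT cells. With KO at the floor it was 24.1-fold lower. Ppp1r15a, which restores translation after stress, had 57.4 CPM in KO and 222 CPM in WT, and Atf3, a stress-induced transcription factor, had 244 CPM in KO and 527 CPM in WT. Thbs1 had 281 CPM in KO and 977 CPM in WT in 27 of 73 and 12 of 21 cells, a log2 ratio of -1.80. Clec4d, the partner of Clec4e, had 122 CPM in KO and 457 CPM in WT. Fth1, the heavy chain of ferritin, was an abundant gene called lower, with 5741 CPM in KO and 12911 CPM in WT (ratio 0.445, 0.421 to 0.470), in every monocyte of both libraries. Its medians over cells were closer, 3135 CPM in KO monocytes (333 to 41258) and 4209 CPM in WT monocytes (719 to 70933), so single high cells weigh on the sums. Hmox1, which frees iron from haem, was on the other side, at 375 CPM in KO and 152 CPM in WT, with 122 of its 261 KO UMIs in 1 cell. Pmp22, Il7r, Phlda1, Cd9 and 4930430E12Rik completed the 12 lowest.

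Of lists without such a side, complement and Fc receptor genes had 3 of 12 higher and 1 lower. Cfb, complement factor B, had 113 CPM in KO and 6.93 CPM in WT, in 30 of 73 and 1 of 21 cells, Fcgr4 had 184 CPM in KO and 83.2 CPM in WT, and C3 had 171 CPM in KO and 83.2 CPM in WT. Costimulation genes had 1 of 6 higher, Cd40, at 122 CPM in KO and 41.6 CPM in WT. Cd86, the ligand of CD28, had 94.8 CPM in KO and 104 CPM in WT (ratio 0.912, 0.515 to 1.72), and Cd274, which encodes PD-L1, had 93.3 CPM in KO and 76.2 CPM in WT (1.22, 0.641 to 2.57). Transcription factors had 1 of 22 higher, Cebpa, at 68.9 CPM in KO and 6.93 CPM in WT, and 2 lower. The WT values of Cfb and Cebpa are under the floor of 20.8 CPM, so the size of their differences is not settled. Of 16 S100, annexin and galectin genes none was called in either direction, with a median of -0.14 against -0.02 over all genes. The medians of the glycolysis list (1 of 21 lower), the cycling list (1 of 7 lower) and the dissociation list (1 of 16 lower) were -0.26, -0.61 and -0.28.

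The same lists were counted in the other classes of the same libraries. In macrophages 132 of 2958 genes (4.46%) were higher in KO and 99 (3.35%) lower. The interferon gamma list had 12 of 20 higher and 0 lower in KO macrophages (median 1.56), and Cxcl9 had 871 CPM in KO and 42.4 CPM in WT macrophages. The type I list had 0 of 23 higher there (median 0.26), with Ifit1 at 114 CPM in KO and 134 CPM in WT macrophages, against 609 CPM in KO and 118 CPM in WT monocytes. MHC class II had 0 of 6 higher and 1 lower in KO macrophages (median -0.68), against 4 of 6 higher in KO monocytes. Cxcl10 stood at 736 CPM in KO and 191 CPM in WT macrophages.

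In cDC2s 60 of 2799 genes (2.14%) were higher in KO and 69 (2.47%) lower. The interferon gamma list had 7 of 19 higher and 0 lower (median 0.83), and the type I list 9 of 23 higher and 0 lower (median 0.72). MHC class II genes had 0 of 10 called in either direction (median -0.11), and H2-Aa stood at 11375 CPM in KO and 12493 CPM in WT cDC2s. Chemokine ligands had 1 of 9 higher and 4 lower (median -0.89), against 8 of 15 higher in KO monocytes. Mature dendritic markers, a list that shares Ccl5, Ccl17 and Ccl22 with the chemokine list, had 0 of 6 measured higher and 5 lower in KO cDC2s (median -2.87), and summed to 418 CPM in KO cDC2s (0 to 0.944% of a cell, 2 of 11 genes at 0) and 1668 CPM in WT cDC2s (0 to 4.71%, 1 of 11 at 0). Their part in the chemokine count was not tested. Whether these differences between classes exceed the spread between animals was not tested, since each class has 1 value a group.

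**Figure D4:**
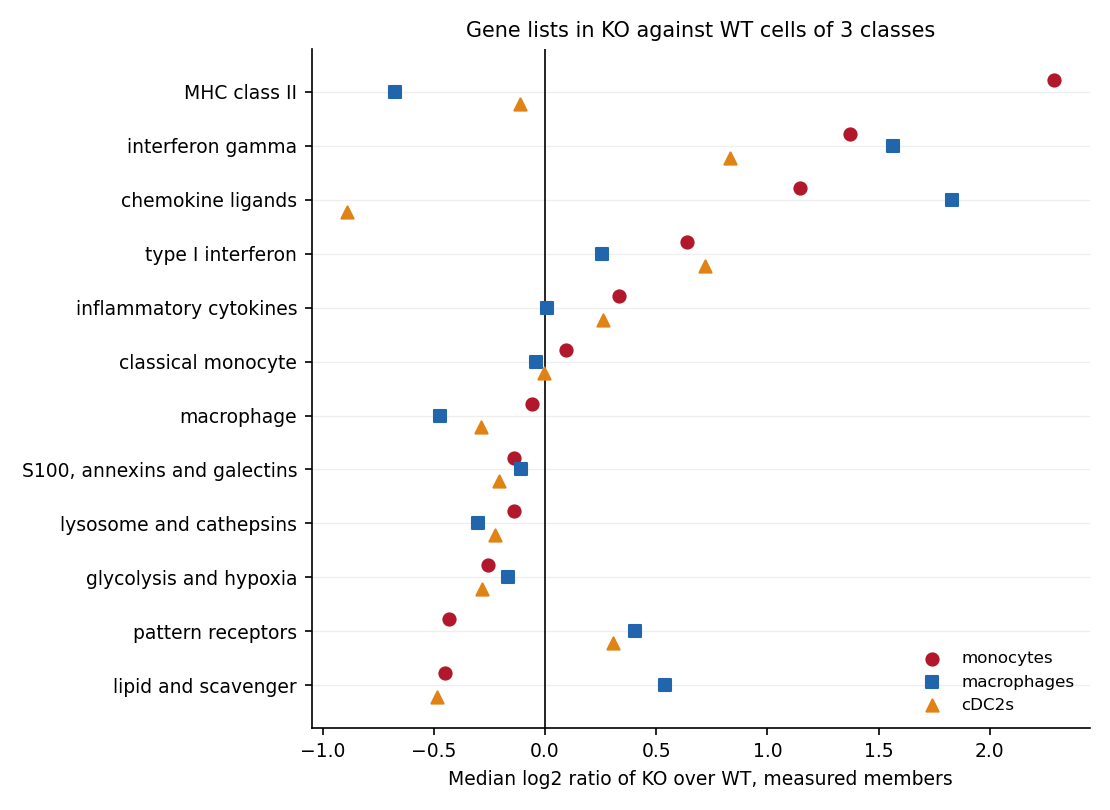
Median log2 ratio of KO over WT (horizontal) over the measured members of 12 gene lists (rows) in monocytes (red circles), macrophages (blue squares) and cDC2s (orange triangles); the vertical line marks 0. The MHC class II median is 2.29 in monocytes, -0.68 in macrophages and -0.11 in cDC2s, while the interferon gamma medians are 1.37, 1.56 and 0.83.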

How the data were processed

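Droplet RNA counts were used from 1 KO and 1 WT library. Per the file headers the deposited values are whole-number UMI counts over 27998 genes, without normalization. Per the submitters' processing notes, Cell Ranger 1.3 and the mm10 build were used, whereas 3.0.2 is the version in the matrix header; the annotation release and which transcript end was read are not given in the sources used here. The libraries held 11758449 UMIs in 1219 barcodes (KO) and 9283014 UMIs in 1120 barcodes (WT).

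Counts as deposited were summed over each class and scaled to CPM of the class total, with exact Poisson intervals. Ratios have exact conditional binomial intervals and shares Clopper-Pearson intervals, all at 95% and for counting error only. Ranges of share differences join opposite ends of the 2 intervals and are not 95% intervals. Macrophages had at least 10 C1q UMIs and cDC2s at least 3 of Cd209a, Clec10a and Mgl2, each with at most 2 of the monocyte gate genes. T cells had at least 3 CD3 UMIs and at most 1 UMI of each other gate sum. A gene was measured at 50 CPM in either class and called at a ratio of 2 or more with an interval that excludes 1. A gene with 0 UMIs was set to 3 counts over the class for folds, and such a fold is not a lower bound. A count of 1 or 2 was left as it was, so its fold can exceed that of a gene with no UMI. With 1 library a group no test and no p-value was possible. Shares of cells with a UMI were compared after thinning to 2000 UMIs, which left out 2 WT monocytes. The ratio step was tested on simulated data.

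Named genes were the 12 highest and 12 lowest with at least 100 CPM, ranked by the interval bound nearest 1, the 10 and 10 of each class comparison, a core list and up to 6 per gene list; gate, antigen receptor, ribosomal, mitochondrial and haemoglobin genes, markers of T, NK, B, melanoma and erythroid cells, predicted Gm genes and repeated symbols were left out of rankings. Of 550 listed genes 535 were matched and the others were not used here. Some genes that the rule names are not reported here. The members and lists were chosen with earlier results of these data known. Scrublet with an expected rate of 6% called 3 KO barcodes (0.276%) and 5 WT barcodes (0.506%), and no monocyte, so it cannot be taken to have found the doublets; cells were not removed by it except as an alternative. Python 3.11.15, numpy 2.4.6, scipy 1.17.1, pandas 2.3.3, scanpy 1.11.5 and matplotlib 3.10.9 were used.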

Additional observations from a re-analysis of the deposited data

Results flagged for a closer look

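In 9 genes the KO over WT log2 ratio was called in opposite directions in monocytes and in another class. Each class has 1 value a group, so the difference between classes was not tested. Higher in KO monocytes and lower in KO macrophages were Pf4 (3.70 in monocytes, -2.32 in macrophages), H2-Eb1 (2.47 and -1.12) and Hmox1 (1.298 and -3.34). The monocyte values rest on few cells. Pf4 had 2 UMIs in WT monocytes, 1 WT cell gave 19 of the 20 H2-Eb1 UMIs, and 1 KO cell gave much of the Hmox1 count. Hmox1 had 341 CPM in KO macrophages and 3451 CPM in WT macrophages.

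Lower in KO monocytes and higher in KO macrophages were Gpnmb (-3.74 in monocytes, 1.88 in macrophages), Cxcl2 (-2.54 and 1.15), Cd9 (-2.45 and 1.05), Spp1 (-1.94 and 2.52) and Cd36, a fatty acid transporter (-1.92 and 2.12). Spp1 had 687 CPM in KO macrophages, in 7 cells, and 120 CPM in WT macrophages, in 6 cells. Neutrophil markers stood higher in KO macrophages too, with 3 of 3 measured called higher (median 3.24) and a sum of 622 CPM in KO (0 to 0.883% of a cell) against 21.2 CPM in WT (0 to 0.00715%), while Ly6g and Retnlg had no UMI in either. Melanoma markers, which include Gpnmb, had 2 of 4 measured higher (median 1.595) and summed to 514 CPM in KO macrophages (0 to 0.259%) and 219 CPM in WT macrophages (0 to 0.136%). Their part in the opposite directions was not tested.

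Ccl5 was higher in KO monocytes (3.08, with WT at the floor) and lower in KO cDC2s (-3.61), where it had 68.7 CPM in KO and 839 CPM in WT, in 4 cells each.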

How the results depend on the processing

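There were 17 other settings and 3 more chosen after seeing the data, of which 1 covered only 77 shares of thinned cells and no gene ratio. Of 14309 gene values, 13657 kept their side of the call, 246 became called and 360 lost their call. The other 46 were called as reported and changed sign. Sign changes were counted only for genes called as reported, so uncalled genes among the 13657 and the 246 may have changed sign. The limits of 20 and 200 CPM and the removal of Scrublet calls could not change a gene value. Each of these settings adds 757 unchanged values to the 13657. Of 2489 list medians 2294 moved little, 190 moved and 5 changed sign, which was counted only for medians of at least 1 in size. Where no cause is given below, the cause was not tested. Outside the 2 thinned gates, the 12 highest and 12 lowest genes kept their calls wherever a value was given. The CPM limits, the Scrublet calls and the other macrophage and cDC2 gates could not change these KO over WT values. No value was given for 76 cases in which the floor of 3 counts hides the direction, nor for 354 with both counts at or under it, a choice made after seeing the data. No paired analysis was possible because each group has 1 library.

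Genes higher and lower in KO monocytes numbered 247 and 376 by the mean CPM over cells (a fold alone, without an interval) and 37 and 21 measured at 200 CPM, and those lower 238 at 20 CPM and 271 with a gate sum of 2. Against macrophages the counts were 340 higher and 168 lower by the mean of cells, and 77 and 37 at 200 CPM. Against cDC2s they were 109 and 34 at 200 CPM, and 72 lower with the whole gate on thinned counts. The WT share was 1.32% with a gate sum of 5, 0.898% with the whole gate on thinned counts and 0.673% with its minimum alone, where the KO share was 4.84%.

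With the whole gate on thinned counts the KO over WT median was -1.45 for MHC class II and -1.10 for chemokine ligands, and the mature dendritic median against WT macrophages was 0.74. KO over WT log2 ratios were -1.50 for Ccl5, -1.30 for Cd74, -2.29 for H2-Aa, -2.90 for H2-Eb1, -1.60 for H2-Ab1, -0.36 for Pglyrp1, 0.30 for Gngt2, 2.31 for Cx3cr1, 0.086 for Cxcr4, 0.22 for Ctsl and 0.82 for Trem2. Against WT macrophages they were -0.60 for Ifi205, -0.33 for Isg20, -0.30 for Ifit2, -0.98 for Trim30a, -0.17 for Rsad2 and F10, -0.25 for Ccr1, -0.27 for Myd88, -1.38 for Ly6c2, 1.23 for AW112010 and 1.13 for Ccl5. Against WT cDC2s they were -0.79 for Oas3, 0.10 for Cst3, -1.79 for Klf2, -0.95 for Bnip3 and -1.03 for Cx3cr1, and against KO cDC2s -0.79 for Il1b and -0.95 for Ccl5.

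With the minimum alone on thinned counts, which left 6 WT monocytes, KO over WT was 1.45 for Cx3cr1, 0.018 for Ctsl and 0.053 for Trem2. Against WT macrophages Isg20 was -0.18, Ifit2 -0.59, Rsad2 -0.37 and Ly6c2 -0.15, and against WT cDC2s Ifit2 was -0.32, Klf2 -0.29, Bnip3 -1.28 and Cx3cr1 -0.26. A gate sum of 2 gave Cd81 against WT macrophages 1.24, and a sum of 5 gave Klf2 against WT cDC2s -0.22. The mean of cells gave Ccl8 KO over WT -0.20 and Gbp2 against WT macrophages -0.0092. At 200 CPM the patrolling median against WT macrophages was -0.13. Without each gene's top cell, Ifit2 was -0.55 against both WT macrophages and WT cDC2s, and the neutrophil median against KO macrophages was 0.046.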

Other observations

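Within monocytes, cells with more of the classical monocyte list had less of the glycolysis and hypoxia list (Spearman -0.42 over 73 KO and -0.53 over 19 WT monocytes, thinned) and less of the MHC class II list (-0.46 and -0.27). The classical list largely followed Lyz2 (0.85 in KO and 0.84 in WT), less so Ly6c2 (0.35 and 0.51) and Plac8 (0.09 and 0.22). Against glycolysis, Lyz2 had -0.40 and -0.48, Ly6c2 0.05 and -0.16, and Plac8 -0.11 and -0.29. Against MHC class II, Lyz2 had -0.40 and -0.28, Ly6c2 0.006 and 0.02, and Plac8 -0.04 and 0.02. The coefficients describe cells of 1 library each, and all lists share the cell's UMI total. The KO monocytes with at least 3 Ly6a UMIs (18 cells) had a median glycolysis share of 1.77% against 0.532% in the other 55, and a median Lyz2 share of 1.03% against 2.57%.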
